A study of Mus musculus with 33 samples.

Results

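The epithelium of the distal colon was compared with that of the cecum in the same mice, with the unique molecular identifiers (UMIs, 1 per captured RNA molecule) of all cells of a library added up. Of the 33 single-cell RNA-seq libraries of the series, 22 come from these compartments, 1 of each from 11 mice, and they hold 15786 of the 23762 cells. Mouse Old-3 was not used, because its cecum library holds 46 cells, below the minimum of 50. This left 20 libraries of 10 mice with 15561 cells, 9925 from the cecum and 5636 from the distal colon.

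All mice were female, wild-type and of the C57BL6/J strain, and the labels name no transgene or treatment. The young group held 1 mouse of 8 weeks, 3 of 12 weeks and 1 of 20 weeks. The old group held 2 mice of 90 weeks, 1 of 92 weeks and 3 of 108 weeks, of which 5 mice were used here, and ages are not tied to single mice in the labels. Crypts were isolated, dissociated with TrypLE, stained for EpCAM, a surface protein of epithelial cells, and with a hashtag antibody, and EpCAM-positive cells were sorted. Libraries were made with a 10X Genomics 3' kit, of version v2 or v3.1. Cells that the crypt preparation or the EpCAM gate loses were not sampled.

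The cecum and the distal colon lie at opposite ends of the large bowel. The HOX genes, which encode homeobox transcription factors, lie in clusters in which neighbouring genes are switched on in order along the body axis, so that genes of the posterior end of a cluster mark posterior tissue. The large bowel epithelium renews itself from stem cells at the crypt base. It consists mainly of absorptive colonocytes, which take up water, salt and the short-chain fatty acids made by bacteria, and goblet cells, which secrete mucus, with smaller numbers of enteroendocrine (hormone) cells and tuft (chemosensory) cells.

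The libraries used hold 73 to 3403 cells and 1348611 to 21288806 UMIs. The mice were divided at the widest gap in median UMIs per cell into 5 high-depth mice (Young-1, Young-2, Young-3, Old-1 and Old-2, 2368 cells) and 5 low-depth mice (Young-4, Young-5, Old-4, Old-5 and Old-6, 13193 cells). Cecum and distal libraries of the same mouse shared 0 barcodes, and low-depth libraries of different mice shared 94 over 40 pairs. Every library had the epithelial markers Epcam and Krt8. Epcam was at 2160.4 CPM (counts per 1e6 UMIs of the library) in the median cecum library and at 2381 CPM in the median distal library. The defining markers of the other cell types were at or near 0: Cd3e (T cells) at most 1.64 CPM, Cd79a (B cells) at most 0.433 CPM, Csf1r (macrophages) at most 0.144 CPM and Col1a1 (fibroblasts) at most 0.189 CPM in any of the 20 libraries. Lyz2 (myeloid cells) reached at most 2.02 CPM and Krt13 (squamous epithelium) at most 0.827 CPM. The Krt13 medians were 0.0634 CPM in the cecum and 0.598 CPM in the distal colon. The median of the UMIs per cell was lower in the distal library in 10 of 10 mice (log2 ratio -0.36 ± 0.053 SE, exact two-sided sign-flip permutation p = 0.00195, Benjamini-Hochberg adjusted over 2 measures p = 0.00391). The share of UMIs from mitochondrially encoded genes was lower in 8 of 10 mice, by 0.381 ± 0.187 percentage points (SE, exact p = 0.0840), which misses the threshold of 0.05. The part of depth in the results below was not tested beyond the fits to libraries of equal total and to each depth group.

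Of 11279 genes tested with the mouse as a block (edgeR quasi-likelihood test, two-sided, Benjamini-Hochberg adjusted p below 0.05), 6225 (55.2%) were called. Of these, 3156 (28%) were higher and 3069 (27.2%) lower in the distal colon. The median log2 change over all genes tested was 0.01, and with 55.2% of genes called, a call alone says little about a gene. Called genes with at least a 2-fold change numbered 1009 (8.95%), 581 (5.15%) higher and 428 (3.79%) lower, and 37 (0.328%) were at least 16-fold higher and 24 (0.213%) at least 16-fold lower. For 562 genes (4.98%) the 10 cecum and the 10 distal libraries did not overlap in CPM. In such sums, more cells of a type and more RNA per cell cannot be told apart. Log2 changes below are distal colon minus cecum from that fit. The standard error after each is not an output of the fit. It was derived as the absolute log2 change divided by the square root of the F statistic of the test, also for the interaction. Counts of called list members from that fit stand against the shares of all genes: 55.2% called, 28% higher and 27.2% lower.

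HOX genes of the same cluster differed in opposite directions. Along the HoxB cluster on chromosome 11, the genes Hoxb2 to Hoxb8 were 15.9- to 40.7-fold lower in the distal colon, Hoxb9 was lower by less than a factor of 2, and Hoxb13, at the posterior end of the cluster, was 65.1-fold higher. In the HoxA and HoxD clusters Hoxa13, Hoxd11 and Hoxd13 were also higher in the distal colon. Of 34 HOX genes in the tables, 17 had enough UMIs to be tested.

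Hoxb13 (chr11:96194316-96197447 of GRCm38, the assembly also called mm10) was at 1.19, 6.50 and 9.39 CPM in the lowest, median and highest cecum library and at 319.6, 371 and 457 CPM in the corresponding distal libraries. Every distal library lay far above every cecum library, and the log2 change was 6.02 ± 0.25 (adjusted p = 7.57e-10). Hoxb9 (chr11:96271457-96276595) was at 55.6, 75.9 and 99.2 CPM in the cecum and 25.2, 43.4 and 58.0 CPM in the distal colon. It was lower in the distal library of 10 of 10 mice although the groups overlapped slightly (-0.75 ± 0.06, adjusted p = 3.15e-07). Hoxb7 (chr11:96286623-96290162) stood at 45.5, 61.1 and 84.7 CPM in the cecum and at only 0.392, 1.52 and 3.96 CPM in the distal colon (-4.83 ± 0.24, adjusted p = 3.98e-09). Hoxb8 (chr11:96281905-96285315) and Hoxb6 (chr11:96292476-96301569) had the same pattern, with log2 changes of -4.81 ± 0.31 and -4.58 ± 0.22 and no overlap between compartments. The anterior members of the cluster were not in the fixed list and were added after their values were seen. They were Hoxb5 (-3.99 ± 0.29), Hoxb4 (-4.81 ± 0.31), Hoxb3 (-4.05 ± 0.29) and Hoxb2 (-5.35 ± 0.18), at medians of 14.3 to 28.3 CPM in the cecum and 0.136 to 0.804 CPM in the distal colon. Exons of Hoxb2 and Hoxb3 overlap those of Hoxb3os, and exons of Hoxb5 those of Hoxb5os, on the opposite strand. Whether counting used strand is not given in the sources used here, so it is not known whether reads of these pairs were counted apart.

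Hoxa13 (chr6:52257694-52260880) was at 0.422, 1.09 and 1.64 CPM in the cecum and 10.6, 24.1 and 43.5 CPM in the distal colon, with no overlap (4.24 ± 0.18, adjusted p = 1.20e-09). The other HoxA genes tested moved little. Hoxa7 (0.13 ± 0.05) and Hoxa10 (0.36 ± 0.10) were called higher, Hoxa9 was not called (0.09 ± 0.08, adjusted p = 0.365), and, outside the list and named after their values were seen, Hoxa3 was higher (0.82 ± 0.10) and Hoxa5 was not called (0.12 ± 0.11). Hoxd13 (chr2:74668310-74671599), near 0 in the cecum at 0, 0.215 and 0.983 CPM, was at 4.40, 16.5 and 32.4 CPM in the distal colon (4.83 ± 0.26). Its neighbour Hoxd11 (chr2:74679557-74687016) followed it, from 0.126 to 8.66 CPM in the median library (4.40 ± 0.29). Of the 11 tested genes of the fixed posterior HOX list, 6 were higher in the distal colon, 4 were lower and 1 was not called, with a median log2 change of 0.13.

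The proximal colon, given as a description from 7 mice with enough cells, was on the cecum's side for the HoxB genes. Its median library held 54.8 CPM of Hoxb7, 43.2 CPM of Hoxb8 and 75.8 CPM of Hoxb9, close to the cecum medians of 61.1, 48.9 and 75.9 CPM. It held 13.7 CPM of Hoxb13, against 6.50 CPM in the cecum and 371 CPM in the distal colon. For Hoxa9 and Hoxa10 the proximal medians of 13.7 CPM and 14.6 CPM were below those of both ends.

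**Figure D1:**
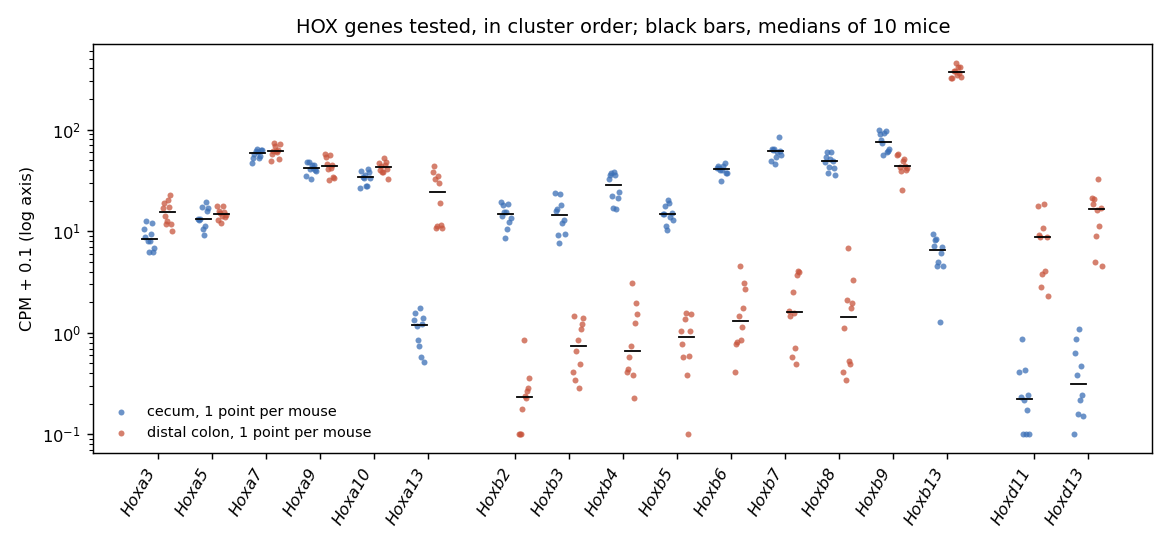
CPM plus 0.1 (log axis) of the 17 HOX genes tested, in the order of each cluster, 1 point per mouse and compartment with the median as a black bar. Hoxb2 to Hoxb8 are lower in the distal colon without overlap, whereas Hoxb13, Hoxa13, Hoxd11 and Hoxd13 are higher in the distal colon in all 10 mice.

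The sequences just before the start of 2 HOX genes that were lower and 2 that were higher in the distal colon are shown because these genes differed in opposite directions between the same libraries. They are the 250 bases upstream of the RefSeq start on GRCm38.p6, read 5' to 3' on the strand of the gene: Hoxb8 (chr11:96281655-96281904, plus strand), Hoxb4 (chr11:96318017-96318266, plus strand), Hoxa13 (chr6:52260881-52261130, minus strand) and Hoxd13 (chr2:74667975-74668224, plus strand). Capitals mark matches, on either strand, to TTTATNG, a core of the sites of caudal-type factors such as Cdx2, and to TTTACGAG, a site form known for posterior HOX proteins. The 2 motifs do not overlap each other in these windows.
Hoxb8: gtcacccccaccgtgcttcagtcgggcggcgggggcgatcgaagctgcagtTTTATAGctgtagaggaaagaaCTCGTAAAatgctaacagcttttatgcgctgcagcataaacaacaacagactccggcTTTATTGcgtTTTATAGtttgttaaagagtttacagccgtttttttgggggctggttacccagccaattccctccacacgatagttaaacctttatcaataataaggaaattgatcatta
Hoxb4: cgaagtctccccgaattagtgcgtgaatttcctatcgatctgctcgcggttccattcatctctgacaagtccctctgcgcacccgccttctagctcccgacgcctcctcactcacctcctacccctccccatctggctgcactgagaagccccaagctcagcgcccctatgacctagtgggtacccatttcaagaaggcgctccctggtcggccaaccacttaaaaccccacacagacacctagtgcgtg
Hoxa13: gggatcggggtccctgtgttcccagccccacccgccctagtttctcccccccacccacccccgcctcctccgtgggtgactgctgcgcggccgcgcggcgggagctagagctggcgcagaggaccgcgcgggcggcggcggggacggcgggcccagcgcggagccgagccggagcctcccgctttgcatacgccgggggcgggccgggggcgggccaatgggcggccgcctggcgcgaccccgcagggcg
Hoxd13: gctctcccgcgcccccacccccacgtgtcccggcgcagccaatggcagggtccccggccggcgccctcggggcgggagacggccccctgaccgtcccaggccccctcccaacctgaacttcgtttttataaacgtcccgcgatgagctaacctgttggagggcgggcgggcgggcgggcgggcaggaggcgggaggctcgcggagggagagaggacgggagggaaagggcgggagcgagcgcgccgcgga
Hoxb8 holds 4 matches and the other 3 windows hold 0, which says only that these letters are not there. Over all 32851 RefSeq promoter windows of the same length, 3223 (9.81%) hold TTTATNG and 36 (0.11%) hold TTTACGAG. Of the genes with the largest changes, described next, 9 of those higher in the distal colon have a window in the table, and 2 of them hold TTTATNG (Tgm3 and Thbs4). Of those higher in the cecum, 6 have a window and 2 hold TTTATNG (Ces1g and Sct), and none of these 15 windows holds TTTACGAG.

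Other transcription factors of intestinal identity moved in both directions. Of 20 tested, 11 were higher in the distal colon, 4 were lower and 5 were not called, with a median log2 change of 0.27, against 0.01 over all genes. Cdx2, the caudal-type factor that defines intestinal epithelium, was at 286, 349 and 378 CPM in the cecum and 47.7, 120.2 and 163 CPM in the distal colon. The groups did not overlap (-1.66 ± 0.13, adjusted p = 3.57e-07). Isx, an intestinal homeobox factor that represses vitamin A uptake genes, fell from a median of 62.1 to 8.17 CPM (-2.83 ± 0.25). Tbx3, a T-box repressor, fell by 3.61 on the log2 scale, and Gata5, a low-level zinc-finger factor, by 0.99. Klf4, a factor of goblet and surface cells, rose from 152 to 331 CPM (1.29 ± 0.18), as did the forkhead factors Foxa2 (1.03 ± 0.09) and Foxa1 (0.65 ± 0.09) and, less, Klf5 (0.30 ± 0.04). Hnf4a (-0.05 ± 0.05) and Nr2f6 (-0.08 ± 0.05), both above 50 CPM, were not called. In the high-depth mice alone 34.4% of all genes tested were called (15.9% higher, 18.4% lower) and in the low-depth mice alone 42.1% (21% higher, 21.1% lower). The list gave 8 higher and 3 lower of 18 in the high-depth mice and 8 higher and 4 lower of 21 in the low-depth mice.

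Among called genes that moved the same way in all 10 mice and had a mean of at least 50 CPM in the higher compartment (455 higher and 905 lower in the distal colon), the 12 with the largest change in each direction are described here. Because the change and its sign in these mice chose them, their sizes, overlap and calls in subsets of the mice are given as a description. The last gene taken was B3galt5 at 4.21 and the first outside was Anxa3 at 4.19, and on the cecum side the last gene taken was Mpp6 at -3.03. The distal and cecum libraries did not overlap for 12 of 12 genes higher in the distal colon and 10 of 12 lower, against 2.26% and 2.72% of all genes tested. All 24 were called in the same direction in the high-depth and in the low-depth mice and in young and old mice alone.

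The largest distal gene by level was Mptx1 (chr1:174330518-174332873), which encodes mucosal pentraxin, a secreted protein of the pentraxin family. It was at 111, 408 and 1773 CPM in the cecum and at 10388, 21064 and 72412 CPM in the distal colon (5.75 ± 0.45). Its relative Mptx2, named after its values were seen, was at medians of 2.49 CPM in the cecum and 3.20 CPM in the distal colon and rose by 0.81 on the log2 scale (adjusted p = 0.0291). Sval1 (chr6:41951630-41956098), seminal vesicle antigen-like 1, another secreted protein, was at 12.4, 70.3 and 221 CPM and 1106, 2684 and 8242 CPM (5.52 ± 0.47). Both genes were high in every distal library of every mouse, and their proximal medians of 673 CPM and 51.7 CPM were nearer to those of the cecum than to those of the distal colon.

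Of these 12 genes, B3gnt7, St3gal6 and B3galt5 encode enzymes that extend sugar chains. B3gnt7 (chr1:86302832-86307305) adds N-acetylglucosamine to keratan sulfate-like chains, and was at 1.31, 4.53 and 15.02 CPM in the cecum and 168, 239 and 516 CPM in the distal colon (5.70 ± 0.26). St3gal6 (chr16:58468125-58524243), a sialyltransferase, was at 2.85, 10.2 and 23.8 CPM and 183, 309.5 and 437 CPM (4.85 ± 0.28). B3galt5 (chr16:96235801-96319859), a galactosyltransferase of type 1 chains, was at 1.64, 3.73 and 34.4 CPM and 53.4, 115 and 152 CPM (4.21 ± 0.35), and its proximal median of 40.2 CPM lay between the ends. Exons of B3gnt7 overlap Gm28626, and those of St3gal6 overlap Dcbld2, on the other strand, and whether those reads were counted apart is not known. Dcbld2 was listed at a median of 1.77 CPM in the distal colon.

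The matrix-associated proteins Thbs4 (chr13:92751590-92794818, thrombospondin 4) and Nov (chr15:54745702-54754039, also named Ccn3) rose from medians of 2.33 to 117 CPM (5.52 ± 0.11) and of 3.98 to 154 CPM (4.78 ± 0.35). Tgm3 (chr2:130012349-130050399), a transglutaminase that cross-links proteins, was at 0.306, 1.03 and 5.56 CPM in the cecum and 24.3, 74.2 and 162 CPM in the distal colon (5.50 ± 0.25). Ctse (chr1:131638306-131675505), the aspartic protease cathepsin E, had the smallest standard error of the 24 genes, 4.91 ± 0.08, and rose from 1.56 to 52.2 CPM. Nxpe2 (chr9:48318006-48353454), a neurexophilin-family gene, rose from 1.56 to 68.7 CPM (4.93 ± 0.29). Cyp2c68 (chr19:39688834-39741054), a cytochrome P450, rose from 3.71 to 73.0 CPM (4.37 ± 0.13) while its relatives Cyp2c65 and Cyp2c55 fell.

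On the cecum side, C1qa (chr4:136895917-136898803), the A chain of complement C1q, had the largest change. It was at 12.4, 63.3 and 197 CPM in the cecum and at 0, 0.548 and 4.45 CPM in the distal colon (-6.51 ± 0.43), and every cecum library was above every distal one. C1qb was at 0 in 19 of the 20 libraries and C1qc at 0 in all 20, and Csf1r reached at most 0.144 CPM. The uncharacterised gene 9130204K15Rik (chr11:79781979-79872394) went from 82.8 to 2.34 CPM (-4.84 ± 0.14). Slc37a2 (chr9:37227585-37255738), a sugar-phosphate exchanger, went from 241 to 11.6 CPM (-4.44 ± 0.24), and its proximal median of 9.94 CPM was at the distal level. Its exons overlap Gm48081 on the other strand. Mpp6 (chr6:50110241-50198939), a membrane scaffold protein, went from 440.2 to 59.5 CPM (-3.03 ± 0.12).

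The 2 cecum genes whose groups overlapped are secreted. Retnlb (chr16:48816856-48818892), the antibacterial goblet cell protein RELM-beta, was at 145, 979 and 4416 CPM in the cecum and 5.28, 35.6 and 775 CPM in the distal colon. The spread between mice was wide on both sides, but the distal library was lower in 10 of 10 mice (-3.99 ± 0.77). Sct (chr7:141278330-141279133), which encodes the hormone secretin, was at 34.1, 467 and 804 CPM and 4.70, 25.0 and 52.6 CPM (-4.09 ± 0.29). The other cecum genes, Car1, Ces1g, Ugt2b5 and Cyp2c65, appear with their pathways below. Across the 24 genes the proximal median lay between those of the cecum and the distal colon for 11 of 12 distal and 10 of 12 cecum genes.

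**Figure D2:**
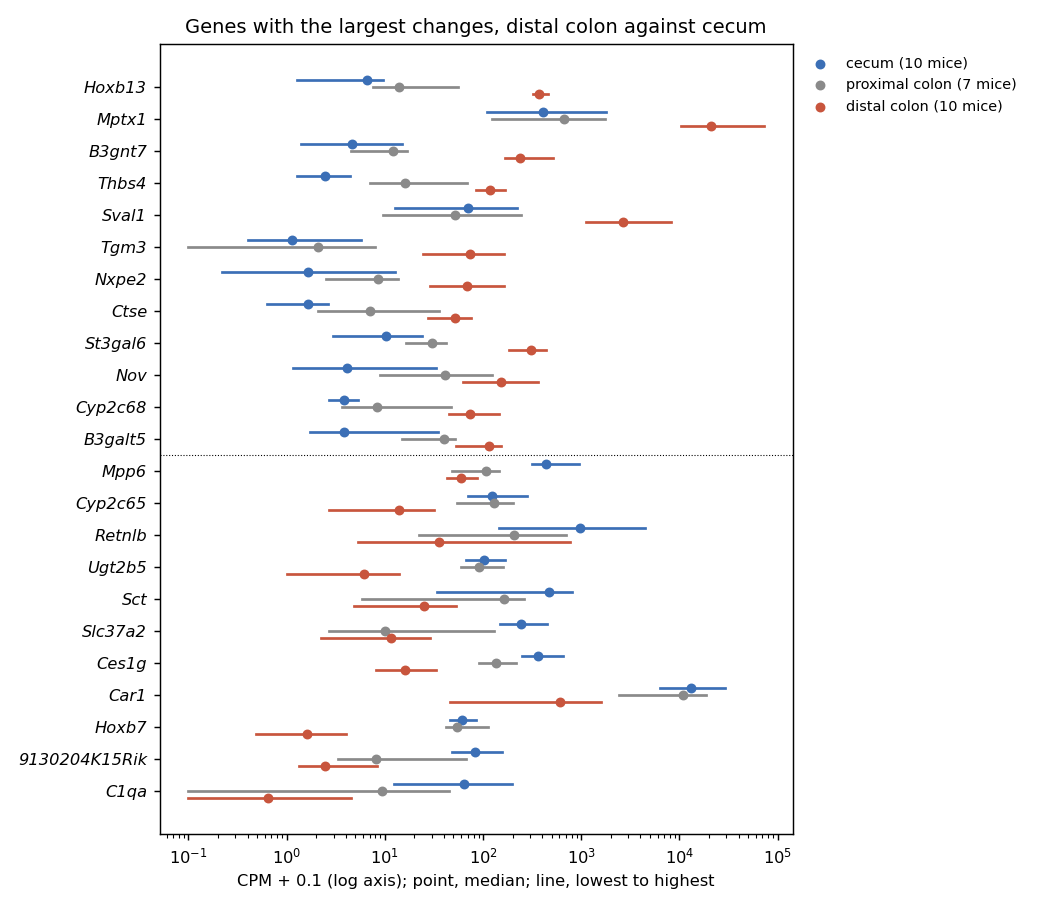
CPM plus 0.1 (log axis) of 23 of the 24 genes with the largest changes, as the median (point) and the lowest to highest library (line) in the cecum and distal colon of 10 mice and the proximal colon of 7. Only Retnlb and Sct overlap between cecum and distal colon, and Mptx1 reaches medians of 408 and 21064 CPM.

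Genes of sodium and water transport moved in both directions. Of 17 tested, 6 were higher in the distal colon, 4 were lower and 7 were not called, with a median log2 change of 0.23. The 58.8% called is near the 55.2% of all genes, so the count does not set the list apart. Aqp4, a water channel of the basal membrane, was at 11.5, 20.8 and 38.0 CPM in the cecum and 184, 307 and 861 CPM in the distal colon, without overlap (4.00 ± 0.21, adjusted p = 5.69e-09). Fxyd4, a regulator of the sodium pump, rose from 0.790 to 32.2 CPM in 10 of 10 mice (4.82 ± 0.26), and the pump subunit Atp1b1 rose by 0.49 ± 0.06. Slc9a3, the sodium-proton exchanger NHE3, rose at a low level (1.73 ± 0.36, 0.713 CPM in the cecum and 3.21 CPM in the distal colon). The kinase Sgk1, a target of aldosterone, fell by 1.26, the water channels Aqp1 and Aqp11 by 1.01 and 0.66, and the exchanger regulator Slc9a3r1 by 0.72 on the log2 scale. Hsd11b2, which protects the mineralocorticoid receptor from glucocorticoids (270.3 CPM in the cecum and 419 CPM in the distal colon), Fxyd3 and Aqp8 were not called (adjusted p = 0.203, 0.253 and 0.104).

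Among 22 genes of chloride, bicarbonate, potassium and proton transport, 6 were higher in the distal colon, 12 were lower and 4 were not called, with a median log2 change of -0.28. Car1 (chr3:14766216-14808368), a carbonic anhydrase that supplies bicarbonate and protons in colonocytes, was at 6410.4, 13115 and 28945 CPM in the cecum and 45.7, 607 and 1586 CPM in the distal colon (-4.63 ± 0.40). The proximal colon, at a median of 10980.0 CPM, was on the cecum's side. The carbonic anhydrases Car12 (-2.38 ± 0.15) and Car13 (-1.41 ± 0.12) and the bicarbonate cotransporter Slc4a4 (-1.17 ± 0.11) fell too. Among the genes that rose were the calcium-gated chloride channel Ano1 from 2.92 to 31.4 CPM (3.30 ± 0.26), the bicarbonate-permeable channel Best2 of goblet cells from 4.91 to 59.0 CPM (3.26 ± 0.43), and the proton-potassium pump Atp12a from 0.328 to 5.76 CPM (3.59 ± 0.28). For these 3 genes the compartments did not overlap. The potassium channel Kcnn4 rose by 0.29 ± 0.09. The potassium channel Kcnq1 (-0.43 ± 0.12) and the chloride channel Cftr (-0.28 ± 0.10), both named after their values were seen, fell, and Kcne3, a subunit that joins Kcnq1, was not called (0.01 ± 0.08). The summed level of the list was 9498 to 33455 CPM in the cecum and 2399 to 4219 CPM in the distal colon, without overlap. This sum largely follows Car1, whose cecum median of 13115 CPM stands against 17143 CPM for the list. The sum without Car1 was not examined.

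Genes for the use of short-chain fatty acids and for ketone body synthesis were lower in the distal colon. Of 21 tested, 1 was higher in the distal colon, 15 were lower and 5 were not called, with a median log2 change of -0.40. Bdh1, which interconverts ketone bodies, was at 149, 179 and 213 CPM in the cecum and 71.2, 85.3 and 96.1 CPM in the distal colon (-1.03 ± 0.07, adjusted p = 4.38e-08). Pparg, a nuclear receptor for fatty acids, was at 70.1, 91.9 and 133 CPM and 24.7, 31.1 and 48.9 CPM (-1.51 ± 0.08), and for both genes every cecum library was above every distal one. The exception was Slc5a8, a sodium-coupled transporter of short-chain fatty acids, which rose from 58.4 to 185 CPM (1.73 ± 0.19). The beta-oxidation genes Acadm (-0.02 ± 0.05) and Acadl (0.00 ± 0.07), the thiolase Acat1 (0.06 ± 0.05) and the lipid droplet gene Plin2 (0.17 ± 0.07) were not called. In the depth groups the list gave 2 higher and 12 lower of 21 in the high-depth mice and 1 higher and 15 lower of 21 in the low-depth mice.

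Of 9 tested bile acid genes, 0 were higher in the distal colon, 6 were lower and 3 were not called, with a median log2 change of -0.56. Slc10a2, the apical bile acid importer, went from 6.53 to 0.353 CPM (-3.43 ± 0.24), and Slc51a, a chain of the basolateral exporter, from 40.8 to 3.27 CPM (-3.25 ± 0.26). The bile acid receptor Nr1h4 (-0.56 ± 0.09) and the efflux pump Abcb1a (-0.86 ± 0.09) fell in 10 of 10 mice. Fabp6, the ileal bile acid binding protein, was not called (-0.48 ± 0.49).

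Of 38 tested genes of steroid, retinoid and xenobiotic metabolism, 4 were higher in the distal colon, 26 were lower and 8 were not called, with a median log2 change of -0.84, and the summed level was 5204 to 11078 CPM in the cecum against 2249 to 4424 CPM in the distal colon, without overlap. Ces1g (chr8:93302369-93337308), a carboxylesterase that splits esters and drugs, was at 248, 365 and 646 CPM in the cecum and 8.12, 15.8 and 33.4 CPM in the distal colon (-4.53 ± 0.17). The sulfotransferase Sult1d1 fell from 882 to 222 CPM (-2.09 ± 0.09) and the retinaldehyde dehydrogenase Aldh1a1 from 78.3 to 14.3 CPM (-2.50 ± 0.13). Members that fell include the P450 enzymes Cyp2c55 (-2.74 ± 0.23), Cyp2c65 (chr19:39061015-39093944, -3.55 ± 0.29) and Cyp4b1 (-3.73 ± 0.20) and the glucuronosyltransferase Ugt2b5 (chr5:87124960-87140318, -4.05 ± 0.28). The genes that rose were Cyp2c68, named above, the retinol carrier Rbp4 (2.31 ± 0.33), the retinol dehydrogenase gene Rdh16 (1.01 ± 0.21) and the prostaglandin-degrading Hpgd (0.45 ± 0.14), which was lower in goblet-rich cells alone (-0.56, adjusted p = 0.00371, cells defined below). Gsto1 (0.11 ± 0.08) and Sult1b1 (-0.33 ± 0.14) were not called. Cyp2c, Ces1 and Ugt2b genes belong to families with close copies, so how reads were divided among their members is uncertain.

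**Figure D3:**
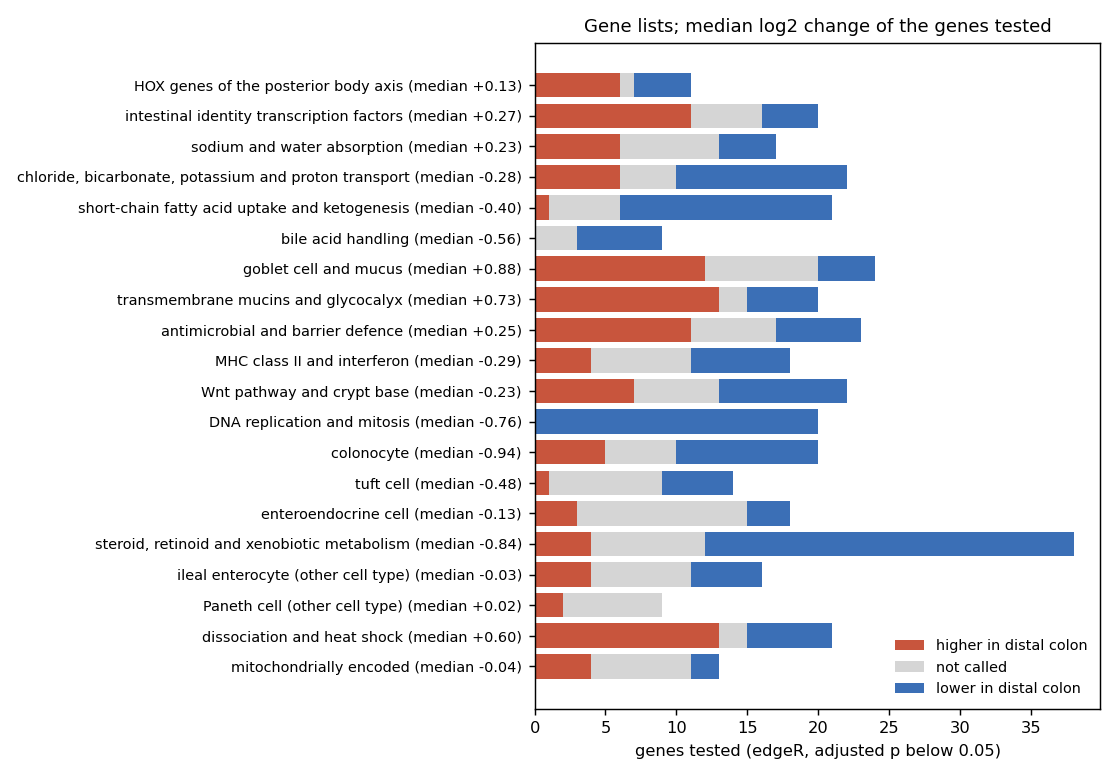
Number of genes tested in each fixed list that were higher (red), lower (blue) or not called (grey) in the distal colon, with the median log2 change of the list in its label. The list of DNA replication and mitosis is lower throughout (20 of 20), and 26 of 38 metabolic genes are lower.

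Of 24 tested goblet cell and mucus genes, 12 were higher in the distal colon, 4 were lower and 8 were not called, with a median log2 change of 0.88. In the high-depth mice alone the list gave 5 higher and 3 lower of 23, against 15.9% and 18.4% of all genes. The low-depth mice alone gave 13 higher and 4 lower of 24, against 21% and 21.1%. The chemokine Ccl6 was at 20.3, 177 and 495 CPM in the cecum and 691, 1114 and 2646 CPM in the distal colon (3.11 ± 0.41), without overlap. The goblet secretory factor Creb3l1 rose by 1.67 ± 0.16 and the kallikrein Klk1 by 1.19 ± 0.25. Muc2, the gel-forming mucin, and Agr2, which folds it, named after their values were seen, rose by 1.19 ± 0.35 and 1.47 ± 0.39, each in 8 of 10 mice. The chemokine Ccl9 (-1.47 ± 0.29), the core 3 glycan synthase B3gnt6 (-1.06 ± 0.33) and Tmigd1 (-2.06 ± 0.32), an adhesion molecule that is also in the colonocyte list, fell with Retnlb. Other abundant goblet products were not called: the trefoil peptide Tff3 (-0.52 ± 0.40), Fcgbp (-0.13 ± 0.44), the lectin Zg16 (0.07 ± 0.54), Spink4 (-0.13 ± 0.39), Galnt12 (0.11 ± 0.11) and Guca2a, which encodes guanylin (0.13 ± 0.26).

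The libraries also differed in their share of cells rich in goblet products. Cells with at least 1.5% of their UMIs from Muc2, Tff3, Agr2, Fcgbp and Spink4 (goblet-rich, a range set after seeing the data and not a cell type) were 2.15%, 23.5% and 47.4% of the lowest, median and highest cecum library and 19.0%, 38.6% and 53.2% of the distal ones. The share was higher in the distal colon in 7 of 10 mice. Cells below 1.0% were called goblet-poor, and 40 cecum and 35 distal cells lay between. The comparison was repeated within each range, over 8 mice with at least 20 goblet-rich cells in both libraries and 10 mice for goblet-poor cells. Young-2 and Old-2, with 11 goblet-rich cells in each cecum library, were left out for goblet-rich cells.

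Goblet-rich cells alone gave 2924 calls among 9404 genes (31.1%), with 15.5% of the genes higher and 15.6% lower in the distal colon. In goblet-poor cells alone 5523 of 10770 (51.3%) were called, 24.3% higher and 27% lower. The HOX changes appeared in both ranges: Hoxb13 at 4.98 in goblet-rich and 6.49 in goblet-poor cells, Hoxb7 at -4.53 and -4.64, Hoxa13 at 3.11 and 4.44. Ces1g (-4.43 and -4.30) and Car1 (-3.50 and -4.48) also changed in both. Other genes were called in 1 range and not in the other. Mptx1 changed by 6.14 in goblet-rich cells (adjusted p = 1.52e-07) and by 0.50 in goblet-poor cells (adjusted p = 0.0545). Sval1 changed by 5.54 and 0.54 (adjusted p = 0.154 in goblet-poor cells) and Retnlb by -5.25 and -0.06 (adjusted p = 0.723 in goblet-poor cells). C1qa (-7.58) and Nov (4.30) had enough UMIs to be tested in goblet-rich cells only, and Tgm3 (6.04) in goblet-poor cells only. Cyp2c68 (1.5 and 5.34), Nxpe2 (1.68 and 5.85) and Aqp4 (1.15 and 4.48) had larger values in goblet-poor cells. The difference between the ranges was itself not tested for any gene.

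Within goblet-rich cells the goblet genes themselves were more often lower than higher in the distal colon, unlike in the whole epithelium, and this contrast was not tested. The fits also differ in mice, as the goblet-rich fit leaves out Young-2 and Old-2. In the whole epithelium the log2 differences of Tff3, Fcgbp and Zg16 were 2.99, 3.47 and 2.93 in Old-2, the highest of any mouse. In Young-2 they were -0.096, 0.697 and 0.784. The part of the mice left out in this contrast was not tested. Of 23 tested, 6 were higher and 10 lower in the distal colon, in a list that includes the 5 genes that set the range. Tff3 was at -1.67 (adjusted p = 1.47e-07), Zg16 at -1.16 (0.0346), Fcgbp at -1.28 (9.83e-05) and Guca2a at -1.28 (1.82e-10), whereas Ccl6 at 2.15 and Creb3l1 at 0.89 were higher. Muc2, at 0.24, was not called there (adjusted p = 0.335). The range was drawn from 5 of these genes, Muc2, Tff3, Agr2, Fcgbp and Spink4. Their values within it, and the counts of the list that includes them, are therefore a description.

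**Figure D4:**
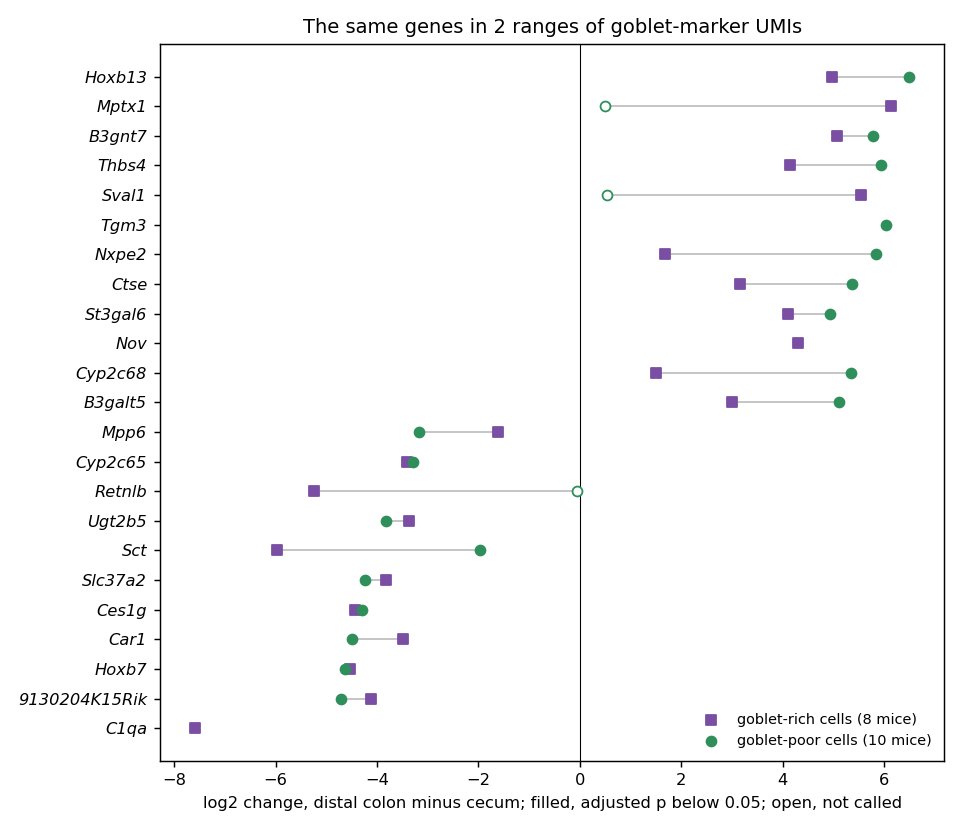
Log2 change, distal colon minus cecum, of 23 of the 24 genes with the largest changes in goblet-rich cells (squares, 8 mice) and goblet-poor cells (circles, 10 mice), filled where called and open where not. Mptx1, Sval1 and Retnlb lie near 0 in goblet-poor cells, and Hoxb7 lies far below 0 in both (-4.53 and -4.64).

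Of 20 tested genes of membrane-bound mucins and the glycocalyx, 13 were higher in the distal colon, 5 were lower and 2 were not called, with a median log2 change of 0.73. Muc3, a membrane mucin of the absorptive brush border that is in the colonocyte list too, was at 28.2, 78.3 and 290.4 CPM in the cecum and 509, 624 and 947 CPM in the distal colon (3.04 ± 0.40). Muc1 rose at a low level (2.42 ± 0.28). The core 2 branching enzyme Gcnt1 (3.14 ± 0.41) and the fucosyltransferases Fut2 (1.41 ± 0.16) and Fut8 (1.33 ± 0.16) rose, while another core 2 enzyme, Gcnt3, fell (-1.52 ± 0.16). B4galnt2, which makes the Sda blood group antigen, was at 15.98, 101 and 222 CPM in the cecum and 3.31, 19.5 and 40.3 CPM in the distal colon. It was lower in the distal library of 10 of 10 mice (-2.09 ± 0.14), as was B4galnt1 (-1.52 ± 0.22), and Galnt4 fell slightly (-0.29 ± 0.06). Cdhr5 (-0.11 ± 0.15) and Mgat4c (-0.57 ± 0.28) were not called.

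Among 23 tested genes of antimicrobial and barrier defence, 11 were higher in the distal colon, 6 were lower and 6 were not called, with a median log2 change of 0.25. Wfdc2, a secreted protease inhibitor, was at 116, 208 and 390.3 CPM in the cecum and 623, 988 and 1288 CPM in the distal colon without overlap (2.21 ± 0.09, adjusted p = 5.34e-10). The peptidoglycan-binding protein Pglyrp1 (0.94 ± 0.11) and the oxidase genes Duox2 (1.43 ± 0.21) and Noxo1 (0.42 ± 0.06) rose. Retnlb fell as given above, together with the lectin Reg3g (-1.10 ± 0.21), the defensin Defb37 (-2.26 ± 0.35) and the inflammasome sensor Nlrp6 (-1.03 ± 0.13, from 116 to 57.1 CPM). Reg4 was not called (-0.72 ± 0.45). Of 18 tested genes of antigen presentation and interferon response, 4 were higher in the distal colon, 7 were lower and 7 were not called. The median log2 change was -0.29. The 61.1% called is near the 55.2% of all genes, so this count does not set the list apart. The interferon factors Irf7 (-1.29 ± 0.18) and Irf8 (-0.73 ± 0.07), B2m (-0.43 ± 0.05) and H2-DMa (-1.05 ± 0.22) fell, and Ly6e (1.32 ± 0.15), Ifi27 (1.04 ± 0.21), Oas1a (0.36 ± 0.14) and H2-D1 (0.24 ± 0.07) rose.

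All 20 genes of DNA replication and mitosis were lower in the distal colon, with a median log2 change of -0.76. Rrm2, a subunit of ribonucleotide reductase, was at 38.3, 52.3 and 65.8 CPM in the cecum and 3.71, 14.3 and 27.9 CPM in the distal colon (-1.73 ± 0.15). The helicase subunit Mcm6 (-0.83 ± 0.10), the polymerase clamp Pcna (-0.54 ± 0.06) and thymidylate synthase Tyms (-0.46 ± 0.05) fell in 10 of 10 mice with overlapping groups. The summed level of the list was 1616 to 3056 CPM in the cecum and 756 to 2124 CPM in the distal colon. In the depth groups, 0 higher and 16 lower of 20 in the high-depth mice and 0 higher and 20 lower of 20 in the low-depth mice were called.

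The Wnt pathway and crypt base list was divided: of 22 tested genes, 7 were higher in the distal colon, 9 were lower and 6 were not called, with a median log2 change of -0.23. Cd44, a Wnt target and adhesion molecule of crypt cells, was at 44.5, 70.3 and 83.6 CPM in the cecum and 3.14, 13.0 and 20.5 CPM in the distal colon (-2.41 ± 0.18), without overlap. The stem cell receptor Lgr5 went from 15.8 to 6.58 CPM (-1.21 ± 0.12), and the Wnt target Sp5 (-2.37 ± 0.21) and the stem and progenitor marker Prom1 (-0.95 ± 0.09) fell as well. The crypt factor Sox9 (0.58 ± 0.09), the growth factor receptor inhibitor Lrig1 (0.71 ± 0.08), Smoc2 (0.49 ± 0.14) and Clu (1.64 ± 0.40) rose. Olfm4 was not called (-0.27 ± 0.14).

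Of 20 colonocyte markers, 5 were higher in the distal colon, 10 were lower and 5 were not called, with a median log2 change of -0.94. Slc20a1, a phosphate transporter, fell from 215 to 35.1 CPM (-2.49 ± 0.10) without overlap, beside Car1, Slc37a2 and Cyp2c55 named above. Muc3, Saa1 (2.84 ± 0.56), Ceacam20 (1.44 ± 0.23) and Ms4a10 (0.64 ± 0.22) rose. Aqp8 (-0.68 ± 0.34), Krt20 (-0.02 ± 0.36), Ceacam1 (-0.23 ± 0.11), Plac8 (-0.18 ± 0.09) and Guca2a were not called.

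Among hormone genes of the enteroendocrine cells, Insl5 rose while secretin and neurotensin fell, but most of the list was not called. Of 18 tested genes of the enteroendocrine list, 3 were higher in the distal colon, 3 were lower and 12 were not called. The median log2 change was -0.13. The 33.3% called is below the 55.2% of all genes. Insl5, a hormone of distal endocrine cells, was at 0, 0.328 and 8.44 CPM in the cecum and 0.337, 33.1 and 252 CPM in the distal colon (5.52 ± 0.49). It was higher in 9 of 10 mice, with overlapping groups. Secretin (Sct, above) and neurotensin (Nts, -2.51 ± 0.47) fell with the prohormone convertase Pcsk1 (-1.10 ± 0.26), and the tachykinin gene Tac1 (0.86 ± 0.31) and the carboxypeptidase Cpe (0.96 ± 0.35) rose. The general markers Chga (-0.55 ± 0.57) and Chgb (-0.95 ± 0.47) and the hormones Gcg (-0.03 ± 0.83) and Pyy (1.17 ± 1.03) were not called, with wide errors. Differences of single mice for Chga ran from -6.51 in Young-2 to 2.86 in Old-1. Of 14 tested tuft cell genes, 1 was higher in the distal colon, 5 were lower and 8 were not called, with a median log2 change of -0.48. Here too the share called, 42.9%, is below that of all genes. The kinase Dclk1 (-0.92 ± 0.33), the lineage factor Pou2f3 (-1.03 ± 0.26) and Sh2d6 (-0.83 ± 0.23) fell, and Cd24a, which other epithelial cells express too, rose (0.58 ± 0.15). In the high-depth mice alone 0 of 11 tuft genes were called, against 9 of 14 in the low-depth mice.

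Markers of neighbouring epithelia and of sample handling were measured beside these groups. Of 16 tested ileal enterocyte markers, 4 were higher in the distal colon, 5 were lower and 7 were not called, with a median log2 change of -0.03. The 56.25% called is near the 55.2% of all genes, so this count does not set the list apart. The summed level of these markers was 288 to 741 CPM in the cecum and 317 to 552 CPM in the distal colon. The peptidases Ace (1.49 ± 0.24), Mep1b (1.17 ± 0.29) and Dpp4 (0.36 ± 0.06) rose and Mep1a (-0.99 ± 0.14), Enpep (-0.99 ± 0.32) and Apob (-0.60 ± 0.19) fell. Of 9 tested Paneth cell markers 2 were higher, 0 lower and 7 not called. The defensin Defa24 was at 16.2, 264 and 2188 CPM in the cecum and 21.6, 289 and 865 CPM in the distal colon and was not called (adjusted p = 0.991). Of the squamous markers only Krt10 was tested and was slightly higher (0.25 ± 0.09). Among those with too few UMIs to be tested, log2 differences of single mice were 0.578 to 3.02 for Krt14 and 1.34 to 2.91 for Lor. They were -0.185 to 2.09 for Krt13, -2.21 to 1.73 for Krt15 and -1.52 to 0 for Krt4. For T cells 1 marker was tested and 0 were called, 0 of 9 B cell markers had enough UMIs, and of the myeloid and stromal lists C1qa and Pecam1 (-0.48 ± 0.18) were lower and Cd14 (0.95 ± 0.08) higher. The sums of the T, B and stromal lists stayed at or below 32.4 CPM in every library.

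Of 21 genes that respond to dissociation and heat, 13 were higher in the distal colon, 6 were lower and 2 were not called, with a median log2 change of 0.60. Genes that rose include the immediate early genes Nr4a1 (1.72 ± 0.24), Junb (0.94 ± 0.14), Zfp36 (0.78 ± 0.12) and Klf6 (0.60 ± 0.09). Genes that fell include the heat shock genes Hspa1a (-1.19 ± 0.19), Hspa1b (-1.06 ± 0.14), Hsph1 (-0.88 ± 0.10) and Hsp90aa1 (-0.56 ± 0.06) and, named after its values were seen, the immediate early gene Ier3 (-0.31 ± 0.07). The heat shock gene Dnajb1 was not called (0.07 ± 0.16). The part of handling in the other changes was not tested. Of the 13 mitochondrially encoded genes, 4 were higher in the distal colon, 2 were lower and 7 were not called, with a median log2 change of -0.04.

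Whether the difference between the compartments depended on age was tested by the interaction of age and compartment over 5 young and 5 old mice. Of 11911 genes, 5 (0.042%) were called, and 1084 had an unadjusted p below 0.05. Ceacam20, a carcinoembryonic antigen family adhesion protein of colonocytes, was higher in the distal colon by 2.08 to 2.73 on the log2 scale in the young mice and by 0.454 to 1.06 in the old (difference, old minus young, -1.55 ± 0.20, adjusted p = 0.0171). Vsig2, an immunoglobulin-family membrane protein, was lower in the distal colon in both ages, and less so in the old (1.27 ± 0.18, adjusted p = 0.0272). Its mean level in young mice was 162 CPM in the cecum and 32.5 CPM in the distal colon, and in old mice 216 CPM and 108 CPM. Tceal8, a small nuclear protein gene, had means of 34.7 CPM in the cecum and 52.4 CPM in the distal colon of young mice and of 16.2 and 57.1 CPM in those of old mice (1.19 ± 0.17, adjusted p = 0.0272). Cyr61, a matricellular early response gene (now named Ccn1), changed by -0.535 to 0.421 in the young and 0.897 to 1.30 in the old (1.20 ± 0.15, adjusted p = 0.0171).

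Ppy, which encodes the hormone pancreatic polypeptide, was at 23.1, 0.131, 203, 438 and 35.6 CPM in the distal libraries of Old-1, Old-2, Old-4, Old-5 and Old-6. In the distal libraries of the 5 young mice it did not exceed 1.12 CPM, and in the cecum libraries of all 10 mice it did not exceed 4.15 CPM (interaction 6.75 ± 0.93, adjusted p = 0.0461). Over the 15 alternatives in which Ppy was tested, the interaction was 5.45 to 8.29 and was called in 5. The age groups overlapped through Old-2.

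The count of calls moved when single mice were left out. The edgeR test called 0 genes without Old-4 (817 at an unadjusted p below 0.05), 0 without Old-5 (994), 0 without Old-6 (1115) and 0 in the high-depth mice alone (681). It called 28 without Young-5, 11 without Old-2, 9 without Young-1, 3 without Young-3 and 1 without Young-2, and DESeq2 called 54. The 5 genes kept their direction in every alternative in which they were tested, with adjusted p up to 0.682.

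**Figure D5:**
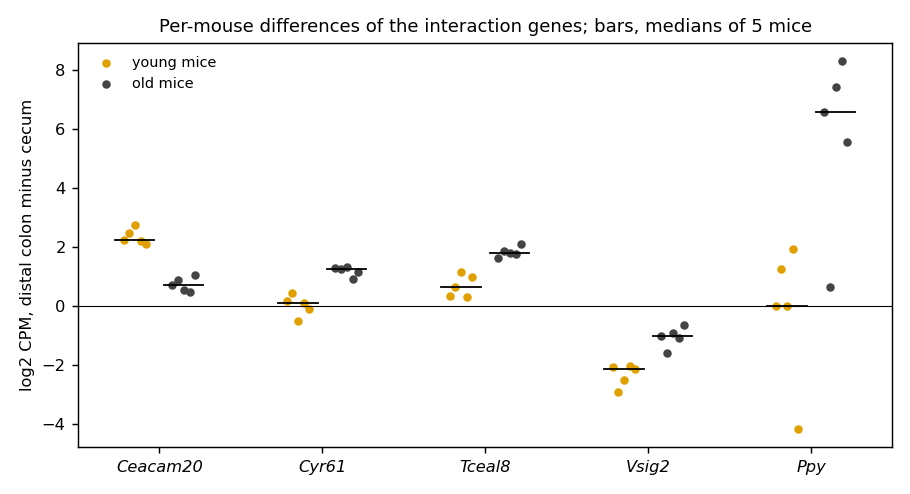
Log2 difference in CPM, distal colon minus cecum, in each young (yellow) and old (dark) mouse for the 5 genes with a called interaction, with bars at the medians of 5 mice. Ceacam20, Cyr61, Tceal8 and Vsig2 separate the ages without overlap, and for Ppy the old mouse Old-2 lies at 0.617, among the young. The interaction test on these same mice chose the genes, so the separation is a description.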

How the data were processed

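For each library the authors deposited raw UMI counts of 21852 genes in every cell. Cell Ranger and the mm10 build are named in the submitters' processing notes, and the version, the counting settings and the kit of each mouse are not given in the sources used here. Libraries were grouped by the labels, and the cecum and distal libraries of a mouse share its number in the labels. They come from the same animal, so the mouse was a block. Their deviations from the compartment means correlated at 0.424 to 0.730, and 2 mice, Young-1 (0.465 against 0.570) and Old-2 (0.424 against 0.638), correlated more with the library of another mouse.

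UMIs were summed per library and tested with edgeR 4.0.16 (R 4.3.3, limma 3.58.1; filterByExpr, TMM, quasi-likelihood, prior count 2, two-sided, Benjamini-Hochberg adjusted p below 0.05). Simulated data for the main comparison held 11199 genes, of which 99 were changed by a log2 of 1 and 100 by 2. Of these, 93.9% and 100% were called, and 6.31% of all calls on the simulated data were false. In the data 55.2% of genes were called, far more than were changed here, so 6.31% is not the false share of those calls. For the interaction (11278 genes, 100 changed by each size) the shares were 66%, 89% and 4.32%. CPM are UMIs per 1e6 UMIs of the library. Depth measures were tested by exact sign flips over mice (Python 3.11.15, numpy 2.4.6), and DESeq2 1.42.0 was an alternative. Replicates are different mice.

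Named genes were the 12 largest changes each way (called, same sign in every mouse, mean of at least 50 CPM), at most 4 called members of a list each way, its members of at least 50 CPM that were not called, and the called interaction genes. Exceptions are marked in the text, and 6 genes that the rule names are not reported here, though the counts include them. The members and lists were chosen with earlier results of these data known. Gene positions are from GENCODE vM21 (GRCm38). No doublet filter was applied.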

Additional observations from a re-analysis of the deposited data

Results flagged for a closer look

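In 3 of 26 results checked for a mouse that stands apart, the old mouse Old-2 had a log2 difference, distal colon minus cecum, far above the other 9. It was 8.16 for Hoxb13 (next highest 6.61), 7.75 for Nxpe2 (next 5.78) and 7.14 for St3gal6 (next 5.35). Chance flags about 1 in 20 such groups if they are independent, and these results share the libraries of Old-2. The cecum library of Old-2 held the lowest level of the 10 cecum libraries for each gene: 1.19 CPM of Hoxb13, 0.119 CPM of Nxpe2 and 2.85 CPM of St3gal6. All 3 genes were higher in the distal colon in 10 of 10 mice. The check did not cover every named gene, and Old-2 was also the highest mouse for Best2 (7.18, next 3.92) and Ccl6 (6.34, next 4.32). Goblet-rich cells were 2.15% of its cecum library, the lowest share, and 53.2% of its distal library, the highest. The part of this share in these values was not tested.

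The change from cecum to distal colon differed between old and young mice for 5 genes in the interaction test (old minus young, log2). The differences were -1.55 for Ceacam20, 1.20 for Cyr61, 1.19 for Tceal8, 1.27 for Vsig2 and 6.75 for Ppy.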

How the results depend on the processing

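The count of 6225 genes called between the compartments was 3802 in the high-depth mice alone, 3929 in the young mice alone, 3608 with libraries thinned to the smallest total and, in a comparison chosen after seeing the data, 2924 in goblet-rich cells. These have fewer mice, UMIs or cells. Without the replicate block (mouse) 3067 genes were called, of which 3065 were called in the same direction with it. Leaving out each mouse gave 5738 to 6110. The other alternatives (all 11 mice, RLE scaling, no filter, DESeq2, cells with non-epithelial markers left out, low-depth mice, old mice, goblet-poor cells) stayed within a factor of 1.5.

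The count of 5 interaction genes was 2 with all 11 mice, 67 without the filter on low counts, 54 with DESeq2, 0 in the high-depth mice and 14 in the low-depth mice, and 0 to 28 when each mouse was left out. The cause was not tested. The log2 ratio for median UMIs per cell, distal colon minus cecum, was -0.28 in the high-depth and -0.44 in the low-depth mice, where 5 mice allow no p below 0.0625, and -0.333 to -0.384 when each mouse was left out. The mitochondrial share of UMIs, distal colon minus cecum, was -0.417 points with all 11 mice (exact p = 0.0420) and -0.282 to -0.475 when each mouse was left out, with an exact p of 0.0234 without Young-2.

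Among genes named in the text, 8 took the other sign in goblet-rich cells alone (a fit that also leaves out the mice Young-2 and Old-2), with a call in at least 1 of the compared fits: Fxyd3 (-0.40), Gsto1 (-0.22), Guca2a (-1.28), Hpgd (-0.56), Hsd11b2 (-0.51), Ier3 (0.12), Kcne3 (-0.65) and Zg16 (-1.16). In goblet-poor cells alone 5 did: Ccl9 (0.26), Cftr (0.0047), Defa24 (0.15), Galnt12 (-1.09) and Hnf4a (0.14). Dnajb1 was at -0.40 in the young mice alone. Without the replicate block 36 of the named genes lost their call and 151 did not change side. The filter on low counts limits the genes that could be tested: 11279 of 21852 passed it. The part of depth in this number was not tested.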
